A study of Mus musculus with 6 samples.

Results

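Pou3f4, Irx1, Irx2, Isl1 and Pax6 are transcription factor genes that are known from work on the islets of Langerhans as identity factors of the hormone cells. These 5 genes were taken by name and not by a measured value, but with earlier results of these data known. All 5 were listed among the 31028 genes of the single-cell RNA table of embryonic day 10.5 (E10.5) and among the 8269 genes of each of 2 single-cell ATAC tables, from E10.5 and E13.5. ATAC sequencing marks open chromatin with a transposase, and its tables hold 1 accessibility score per gene and cell. The embryos were C57BL/6 mice, either wild type (Ptf1a+/+, WT) or lacked an enhancer of Ptf1a on both alleles (Ptf1a enh-delta/enh-delta, KO). Ptf1a encodes a transcription factor of early pancreas progenitors and of acinar cells. At E10.5 the tissue was dissected as pancreatic multipotent progenitor cells from a pool of 5 to 9 embryos per library, and at E13.5 the pancreas of 6 embryos was pooled per library. Each genotype, stage and assay has 1 library, 6 in all, so no comparison between genotypes or stages below has a replicate or a test. Intervals in the text are exact 95% intervals that cover counting error only. Cells of 1 library are not replicates.

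In the embryonic pancreas, endocrine cells leave the progenitor epithelium after a short pulse of the transcription factor Neurog3 and then switch on hormone genes, and the earliest of them mostly make glucagon. Pou3f4 (also named Brn4) is a POU-domain factor found in glucagon cells and known to bind the glucagon gene promoter. Irx1 and Irx2 are neighbouring homeobox genes of the Iroquois family whose transcripts mark alpha cells among adult islet cells. Isl1, a LIM-homeodomain factor, is used by all islet endocrine cell types and by the mesenchyme beside the dorsal pancreas. Pax6, a paired-box factor, is needed for full numbers of hormone cells and binds glucagon and insulin promoters. The set of alpha and beta cell factors thus covers genes with an alpha-biased role (Pou3f4, Irx1, Irx2) and genes that alpha and beta cells share (Isl1, Pax6).

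In the mm10 genome, as annotated by RefSeq on GRCm38.p6, Pou3f4 lies at chrX:110814379-110819108 and Pax6 at chr2:105668896-105698410. The other 3 share a chromosome: Irx1 lies at chr13:71958232-71963723, Irx2 at chr13:72624430-72634196 and Isl1 at chr13:116298270-116309688. Irx1 and Irx2 are 660706 bases apart, with 5 annotated genes between them, of which 0 are protein coding. RefSeq promoter entries were found for 4 of the 5 genes, and Irx1 is named only. The 250 bases before the start are shown for the pair that differed most in its use across hormone classes, Pou3f4 and Isl1, and for Irx2, the Iroquois gene with an entry. All are noncoding sequence just upstream of a transcript start, and the Irx2 start in this table lies inside the annotated span of the gene. Capitals mark matches, on either strand, to CAGATG and CAGCTG (E-boxes, the kind of letters bound by basic helix-loop-helix factors), to CCAAT (the CCAAT box) and to TAAT (the homeodomain core), and 0 of the marked matches overlap each other.
Pou3f4, chrX:110814129-110814378, plus strand: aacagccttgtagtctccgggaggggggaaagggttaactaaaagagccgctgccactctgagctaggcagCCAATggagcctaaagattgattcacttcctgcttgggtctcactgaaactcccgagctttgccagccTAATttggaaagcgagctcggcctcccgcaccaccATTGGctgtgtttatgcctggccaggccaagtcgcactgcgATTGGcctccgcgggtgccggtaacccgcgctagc
Irx2, chr13:72628570-72628819, plus strand: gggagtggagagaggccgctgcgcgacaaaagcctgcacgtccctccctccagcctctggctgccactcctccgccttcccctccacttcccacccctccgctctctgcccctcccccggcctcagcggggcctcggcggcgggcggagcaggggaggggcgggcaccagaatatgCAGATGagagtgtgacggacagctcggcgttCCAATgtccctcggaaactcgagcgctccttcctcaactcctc
Isl1, chr13:116309689-116309938, minus strand: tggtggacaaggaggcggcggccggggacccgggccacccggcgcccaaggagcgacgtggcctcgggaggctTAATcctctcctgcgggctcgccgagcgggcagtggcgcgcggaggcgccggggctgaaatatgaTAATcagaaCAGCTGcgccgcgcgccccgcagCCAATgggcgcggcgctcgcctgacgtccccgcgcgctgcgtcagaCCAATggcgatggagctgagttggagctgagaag
The Pou3f4 stretch holds 3 CCAAT boxes and 1 TAAT core, and 2.79% of the 32851 RefSeq promoters read over the same length hold 3 or more CCAAT boxes. The Irx2 stretch holds 1 CAGATG and 1 CCAAT match. The Isl1 stretch holds 1 CAGCTG match, 2 CCAAT boxes and 2 TAAT cores. Over all promoters of that length, 14.4% held CAGATG, 33.8% CCAAT and 54.9% TAAT at least once, and 4271 of the 32851 held CAGCTG. These matches are descriptions of letters and no binding was measured.

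The RNA table held 1104 WT and 815 KO barcodes with 4665222 and 4360076 unique molecular identifiers (UMIs, 1 per captured transcript). The analysis used the 451 WT and 369 KO cells in which 1000 or more genes were detected, with a median of 6700 and 9856 UMIs. The gene whose enhancer was deleted was checked first, and Ptf1a had 142 UMIs in WT, or 34.6 CPM (UMIs per 1000000 UMIs of the same cells), and 0 in KO, where 3 counts would be 0.748 CPM. WT and KO shared 1 barcode in RNA, 0 in ATAC at E10.5 and 2 at E13.5. Cells were clustered without the 5 genes, so their levels did not shape the clusters. At E13.5 the barcode prefixes name a different month for WT than for KO, so genotype and month cannot be told apart there.

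The cells that carried the 5 genes were the endocrine-like cells, 2 clusters named from endocrine markers, such as Chga and Neurod1, with 72 WT cells (16.0%, 12.7 to 19.7) and 139 KO cells (37.7%, 32.7 to 42.8). Gcg, the glucagon gene, led 105 of these 211 cells, Ghrl, the ghrelin gene, led 19, Ppy led 1, and the insulin genes and Sst led 0. An insulin-led beta-like class was therefore not available at E10.5, and the word alpha below rests on Gcg alone. Markers of neural crest and neurons, cells that also use Isl1, summed to 232 CPM in WT and 237 CPM in KO endocrine-like cells, with 7 and 9 of 10 listed markers detected. They were highest in a finer cluster of 12 WT and 38 KO of these cells led by Neurog3, Btbd17 and Tubb3, at 783 and 561 CPM, which by the marker lists scored higher for neural crest and neuron than for endocrine. In that finer cluster Isl1 was at 1447 CPM in WT and 1585 CPM in KO, and the part of neural cells in its levels was not tested. Of the listed markers, Stmn2 was at 0 in both libraries and Foxd3 was at 0 in WT.

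A further finer cluster has to be named before the levels, because it holds endocrine and mesenchyme transcripts in the same barcodes. Its 28 WT and 46 KO cells had Barx1, Pdgfra and Nkx2-3 among their leading genes and a median of 21178 and 18703 UMIs, above the 11130 and 10162 of endocrine-like cells. Endocrine markers summed to 20285 CPM in WT and 13781 CPM in KO there, and mesenchyme markers to 1018 and 968 CPM, against 212 and 226 CPM of mesenchyme markers in endocrine-like cells. A doublet caller marked 1 WT and 4 KO of these barcodes. They are called mixed cells here; 7 WT and 11 KO of them fall inside the endocrine-like clusters and the other 21 and 35 outside. Whether they are doublets was not otherwise tested, and levels outside the endocrine-like cells are given without them.

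Pou3f4 was detected in 45.8% of WT and 62.6% of KO endocrine-like cells, at 126 CPM (103 to 153) and 213 CPM (190 to 237). Outside them, without mixed cells, Pou3f4 was at 3.82 and 5.93 CPM, from 11 UMIs in each library. In progenitor epithelium-like cells it was at 3.01 CPM in WT and 8.52 CPM in KO. The WT and KO values of endocrine-like cells thus both stood above those of each other class, while the order among the other classes rests on a few UMIs.

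Irx1 and Irx2 were almost without UMIs outside the endocrine-like and mixed cells. Irx1 was at 269 CPM (235 to 307) in WT and 368 CPM (338 to 400) in KO endocrine-like cells, against 1.39 and 2.69 CPM outside them. Irx2 was at 390 CPM (349 to 435) and 382 CPM (352 to 415), against 2.43 and 2.16 CPM. Over both libraries the other cells held 9 Irx1 and 11 Irx2 UMIs, and the ratio of endocrine-like over other cells was 175 for Irx1 (91.8 to 384) and 166 for Irx2 (92.2 to 333). It was 39.2 for Pou3f4 (25.5 to 63.2), 54.9 for Pax6 (39.6 to 78.4) and 29.1 for Isl1 (25.3 to 33.6). These ratios rest on leaving out the mixed cells, which was chosen after seeing the data: with them among the other cells the ratios were 6.55 for Pou3f4, 9.68 for Irx1, 10.1 for Irx2, 6.52 for Isl1 and 8.97 for Pax6. The leading genes of the unnamed cluster were Gm42418 and AY036118, followed mostly by histone and cell-cycle genes. Its cells were shallow, with a median of 2736 UMIs against 7806 to 13705 in the other clusters. There Pou3f4, Irx1, Irx2 and Pax6 had 0 UMIs in the 52 KO cells, where 3 counts would be 19.5 CPM, whereas Isl1 had 16.

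Isl1 also had UMIs in a sizeable share of cells outside the endocrine-like clusters. In endocrine-like cells it was at 1108 CPM (1037 to 1182) in WT and 1419 CPM (1359 to 1480) in KO, in 90.3% and 92.8% of cells. In mesenchyme-like cells without mixed cells it was at 89.0 CPM (68.4 to 114) in 38.9% of WT cells and 112 CPM (85.1 to 144) in 45.7% of KO cells. Progenitor epithelium-like cells, at 18.7 CPM in both libraries, had a lower level, although their median depth is greater. The unnamed cluster was at 42.9 CPM (26.9 to 65.0) in 18 of 144 WT cells and 104 CPM (59.5 to 169) in 13 of 52 KO cells, so in KO it did not differ from mesenchyme-like cells beyond counting error. Isl1 UMIs per 100 Gcg UMIs were 40.6 in WT and 102 in KO mesenchyme-like cells, 100 and 51.2 in progenitor epithelium-like cells and 88.0 and 178 in the unnamed cluster, against 4.14 and 7.79 in endocrine-like cells. In WT mesenchyme-like cells this ratio was also higher for Pou3f4 (2.58 against 0.471), Irx2 (2.58 against 1.46) and Pax6 (7.74 against 1.51). For Irx1 it was 1.29 against 1.01. The mesenchyme-like values rest on 4 Pou3f4, 4 Irx2, 12 Pax6 and 2 Irx1 UMIs beside 155 Gcg UMIs. Free endocrine RNA in these cells was not otherwise tested. Neural crest and neuron markers summed to 83.3 CPM in WT and 163 CPM in KO mesenchyme-like cells, and their part in the Isl1 level was not tested. The other 4 members were at 17.0 CPM or less in mesenchyme-like cells.

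Pax6 was at 404 CPM (362 to 450) in 77.8% of WT endocrine-like cells and 443 CPM (410 to 478) in 90.6% of KO cells. In mesenchyme-like cells it was at 17.0 and 5.69 CPM and in progenitor epithelium-like cells at 6.03 and 9.37 CPM. For all 5 genes the order of the class levels was therefore endocrine-like, then mixed cells (which overlap with the endocrine-like cells, as above), with the mesenchyme-like, progenitor epithelium-like and unnamed clusters below both. The order of these last 3 differed between genes and libraries and, for the genes other than Isl1, rests on few UMIs. In mixed cells Pou3f4 was at 123 CPM in WT and 142 CPM in KO, Irx1 at 163 and 208, Irx2 at 241 and 235, Pax6 at 218 and 247, and Isl1 at 625 and 1039 CPM. Pou3f4 in WT is the one case where mixed and endocrine-like cells, at 123 and 126 CPM, did not differ beyond counting error.

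Over all genes with at least 50 UMIs, 5.88% stood more than 1 log2 unit higher in endocrine-like cells than in all other cells, mixed cells included, on log2 of CPM + 10. All 5 members did so, from 2.34 for Pou3f4 to 3.04 for Irx2, with a median of 2.92 beside 0.02 for all genes. They ranked 57 (Pou3f4), 21 (Irx1), 16 (Irx2), 31 (Isl1) and 22 (Pax6) of 10367. Among the listed alpha-associated genes 5 of 6 were higher there, and Meis2 was lower at -1.39. Of the beta-associated genes tested, 1 of 4 was higher, Pax4 at 1.06, and Pdx1, also a gene of the progenitor epithelium, was lowest at -0.66. Endocrine commitment genes were higher in 9 of 12 cases, from Neurod1 at 2.83, and lower in 1, Sox4 at -1.60. Of the Iroquois family 2 of 6 genes, Irx1 and Irx2, passed the UMI minimum, and of the POU3 family only Pou3f4 of 4. Among LIM factors and partners Isl1 was higher and Lmo4, at -1.45, lower, of 5 tested.

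**Figure D1:**
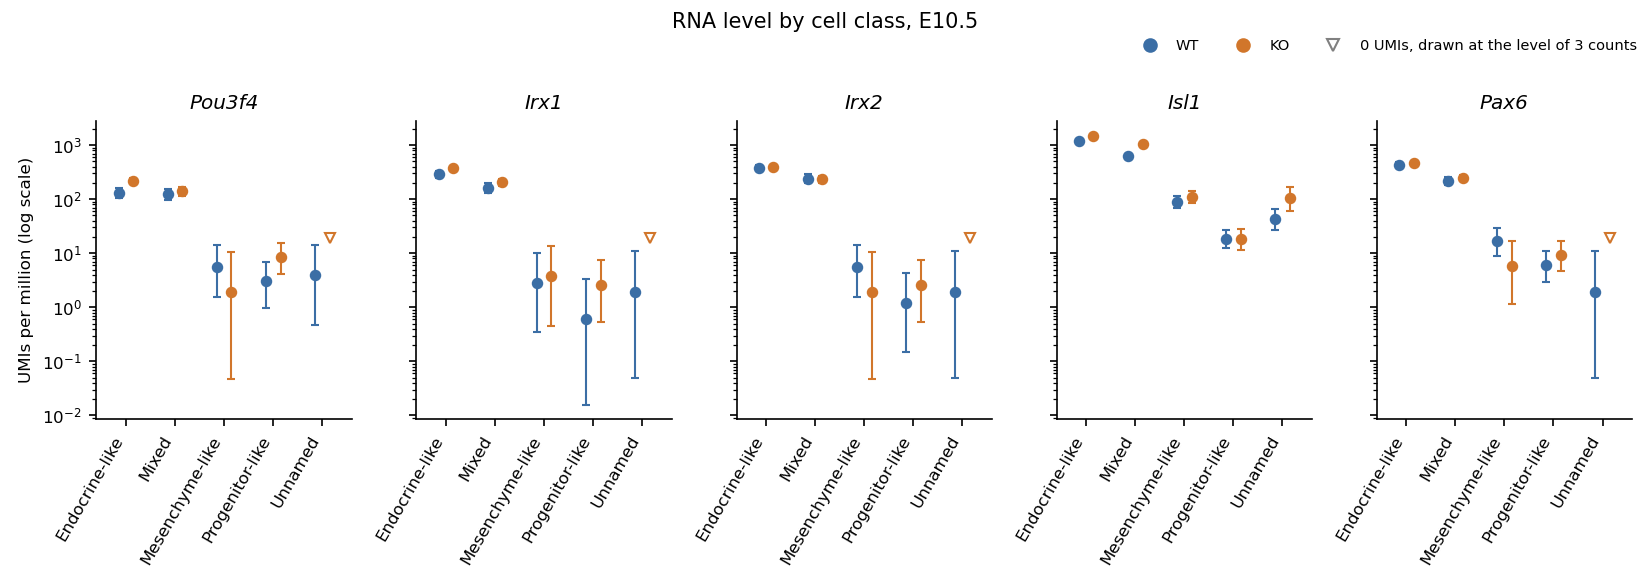
Level of each of the 5 genes in CPM (log axis) by cell class at E10.5, with WT and KO as separate points, exact 95% counting intervals as bars, and open triangles at the level of 3 counts where there were 0 UMIs. Mixed cells are left out of the endocrine-like and mesenchyme-like classes here. All 5 genes are highest in endocrine-like cells, and Isl1 is at 89.0 CPM in WT and 112 CPM in KO mesenchyme-like cells.

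Detection of the 5 genes in the same cells was counted next. All 5 had at least 1 UMI in 27 of 72 WT (37.5%) and 74 of 139 KO (53.2%) endocrine-like cells, whereas 4 WT and 1 KO cells had none of them. Outside the endocrine-like cells and without mixed cells, 0 of 358 WT and 0 of 195 KO cells had all 5, and with mixed cells 8 of 379 WT and 22 of 230 KO cells did. Irx1 and Irx2 were detected together in 53 of the 55 WT cells with Irx1 and in 114 of the 121 KO cells with Irx1. Irx2 was seen less often in cells without Irx1, at 52.9% of 17 WT and 66.7% of 18 KO cells. In cells thinned to 2000 UMIs this contrast was small: 46.4% of WT cells with Irx1 and 45.2% without it had Irx2, and 47.0% and 54.2% of KO cells. At equal depth the shares with and without Irx1 were thus close, and few UMIs per cell remain there.

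Across 15 profiles of a cluster in a library, the genes most like each member in log2(CPM + 10) were mostly of the endocrine secretory apparatus. This is a description over points that share clusters, libraries and depth, among 10366 genes. Irx1 and Irx2 were each other's nearest gene (Pearson r = 0.993). After it came Pcsk1 (0.990), a prohormone convertase, for Irx1, with Unc80, Disp2 and Gm20554, and Syt13 (0.987), a synaptotagmin, for Irx2, with Rundc3a, Celf3 and Dnajc12. Pou3f4 was nearest to Slc7a14 (0.971), then Papss2, Unc80, Pcsk1 and Ptprn2. Pax6 was nearest to Pim2 (0.989), and Pcsk1, Rundc3a and Ptprn2 were also among its 5 nearest genes. Isl1 was nearest to Cpe (0.965), a prohormone carboxypeptidase, then Map1b, Cnih2, Prnp and Arl4a, and its r to the other 4 members was between 0.877 and 0.914.

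Within the endocrine-like cells each cell was classed by its leading hormone, the one with most UMIs and at least 10. The hormones counted were Gcg, Ins1 and Ins2 summed, Ghrl, Sst and Ppy. Cells without a leading hormone were divided by whether they had a Neurog3 UMI. These cells were not free of hormone transcripts, since Pyy was not counted. Pyy was at 9582 CPM in cells with neither label, 7571 CPM in Ghrl-led and 12411 CPM in Gcg-led cells. In Neurog3 cells it was at 6561 CPM, with 367 CPM in WT and 7889 CPM in KO. The median depth was 12395 UMIs in Gcg-led cells, 11175 in Ghrl-led cells, 7636 in cells with Neurog3 and no leading hormone, and 8143 in cells with neither. WT gave 39 Gcg-led and 3 Ghrl-led cells and KO 66 and 16, so values of Ghrl-led cells rest mainly on KO.

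Pou3f4 had the largest fold difference of the 5 between Gcg-led and Ghrl-led cells. Over both libraries it was at 177 CPM (156 to 201) in Gcg-led and 68.7 CPM (38.5 to 113) in Ghrl-led cells, a ratio of 2.58 (1.53 to 4.67). In KO alone the levels were 222 and 64.2 CPM, a ratio of 3.46 (1.93 to 6.81), and in WT 110 and 95.6 CPM, the latter from 3 UMIs. It had a UMI in 63.8% of Gcg-led and 31.6% of Ghrl-led cells at like depth. Its highest level, 278 CPM (231 to 333), was in cells with neither a leading hormone nor Neurog3, and cells with Neurog3 were at 145 CPM (103 to 199), which overlaps the Gcg-led interval.

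Isl1 was higher in Ghrl-led than in Gcg-led cells. Ghrl-led cells were highest at 1764 CPM (1593 to 1950), followed by cells with neither label at 1639 CPM (1520 to 1765), and Neurog3 cells at 1447 CPM (1305 to 1600), each interval overlapping the next. Gcg-led cells were lowest at 1114 CPM (1060 to 1170), below all of these intervals. The ratio of Gcg-led over Ghrl-led cells was 0.631 (0.564 to 0.708), and in KO alone 0.637. In WT, Gcg-led cells were at 1031 CPM (949 to 1118) and the 3 Ghrl-led cells at 1338 CPM (964 to 1809), and these intervals overlap. All 105 Gcg-led cells had an Isl1 UMI, against 73.5% of the shallower Neurog3 cells. Neurog3 cells were also more spread, with quartiles of 0.400 and 25.1 Isl1 UMIs per 10000 UMIs around a median of 12.5, against 7.51 and 14.5 around 10.6 in Gcg-led cells.

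Pax6 was higher in cells without a leading hormone. It was at 659 CPM (585 to 741) in cells with neither label, 546 CPM (460 to 643) in Neurog3 cells, 364 CPM (333 to 396) in Gcg-led and 257 CPM (194 to 333) in Ghrl-led cells. The first 2 intervals overlap and the last 2 just touch. Both libraries had this order between cells with neither label (680 CPM in WT, 646 CPM in KO) and Gcg-led cells (324 and 390 CPM).

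Irx1 and Irx2 differed little between Gcg-led and Ghrl-led cells, with ratios of 0.863 (0.684 to 1.10) and 1.30 (1.01 to 1.70). Both were lowest in Neurog3 cells, at 252 CPM each (195 to 321), though this interval overlaps that of Ghrl-led cells, at 390 CPM (311 to 482) for Irx1 and 316 CPM (246 to 400) for Irx2. Gcg-led cells stood above those by 1.33 (1.03 to 1.75) for Irx1 and 1.63 (1.26 to 2.14) for Irx2. This rested on WT in part, where the 7 Neurog3 cells held 1 Irx1 and 4 Irx2 UMIs, and in KO alone the ratios were 1.25 (0.956 to 1.66) and 1.39 (1.06 to 1.86). Over the same cells the ratio was 0.770 (0.688 to 0.864) for Isl1 and 0.666 (0.552 to 0.807) for Pax6. Their direction changed with the choice of cells: with at least 4 of 10 endocrine markers as the rule for an endocrine cell, the Gcg-led over Neurog3 difference in log2 went from -0.37 to 0.24 for Isl1 and from -0.57 to 0.05 for Pax6.

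Of the 5237 genes compared between Gcg-led and Ghrl-led cells, 2.69% were more than 1 log2 unit higher in Gcg-led cells. Pou3f4 was the 1 member of 5 past this fold, at 1.25, and the members' median was 0.37 beside -0.02 for all genes. Among alpha-associated genes 1 of 6 passed, Ttr (transthyretin) at 1.22. Both beta-associated genes tested passed, Nkx6-1 at 2.02 and Pdx1 at 1.26. In Ghrl-led cells these rested on 2 and 6 UMIs, where 3 counts would be 13.7 CPM. Their ratios were 7.39 (1.99 to 61.9) and 2.90 (1.29 to 8.07). Of 10 commitment genes Fev, an ETS factor of endocrine precursors, was higher at 1.24 and Cdkn1a, a cell-cycle inhibitor, lower at -2.09. Fev had 6 UMIs in Ghrl-led cells, with a ratio of 2.85 (1.27 to 7.93).

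**Figure D2:**
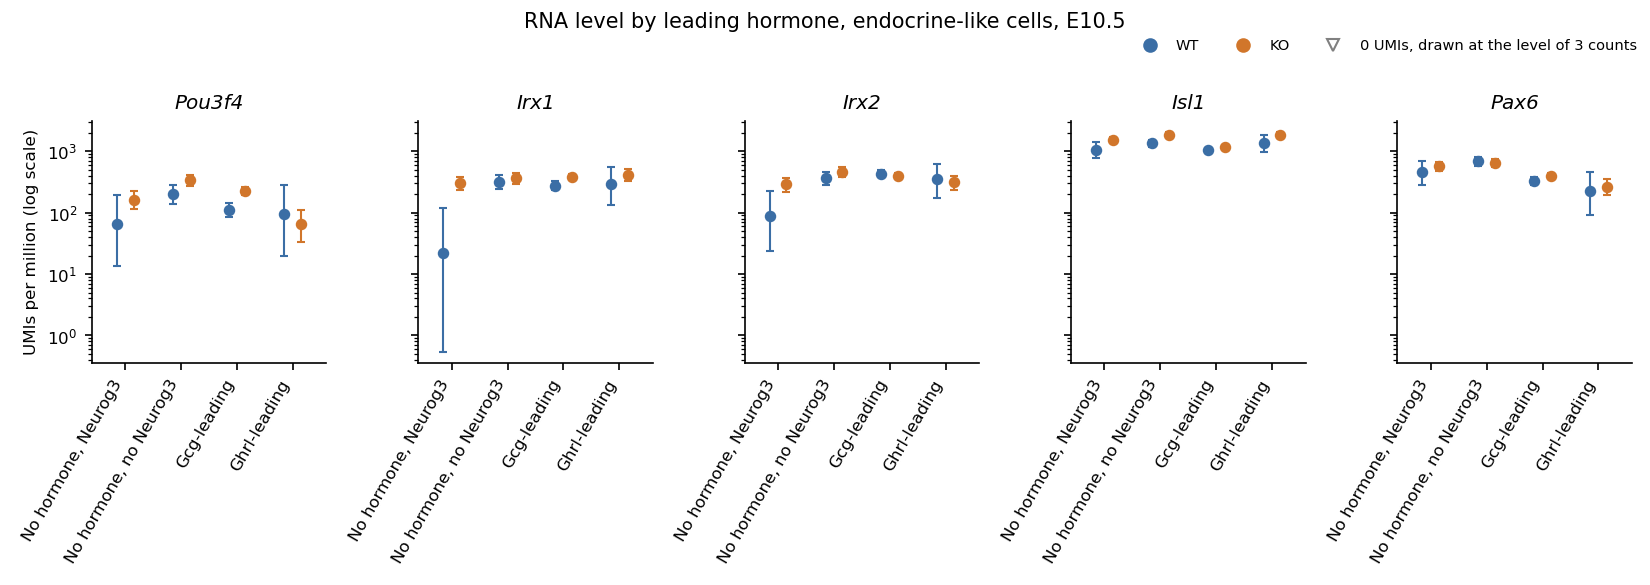
Level of each gene in CPM by leading hormone class of endocrine-like cells at E10.5, for WT and KO with exact 95% counting intervals. The label of no hormone means no leading hormone among those counted, and such cells can hold Pyy. Pou3f4 is lower in KO Ghrl-led cells (64.2 CPM) than in KO Gcg-led cells (222 CPM), whereas Isl1 is higher there (1836 against 1170 CPM).

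Insulin transcripts were looked at in another way, since no cell was led by them. Ins1 and Ins2 together reached 10 UMIs in 10 WT and 10 KO cells, and 16 of these 20 cells were led by Gcg, which was at 51981 CPM over the 20. Pou3f4 was at 67.4 CPM in them and at 197 CPM in the 89 other Gcg-led cells, a ratio of 0.342 (0.203 to 0.547). In WT it was at 75.2 (37.6 to 135), from 11 UMIs, against 120 CPM (90.0 to 158), and these intervals overlap. In KO it was at 59.0 (25.5 to 116) against 241 CPM (207 to 278), which do not overlap. Irx1 and Pax6 were lower too over both libraries, with ratios of 0.710 (0.544 to 0.915) and 0.732 (0.569 to 0.932). The 89 other cells were 30 WT and 59 KO cells, so the pooled groups differ in library. Irx1 was at 185 against 303 CPM in WT and 324 (236 to 436) against 384 CPM (341 to 431) in KO. Pax6 was at 233 against 350 CPM in WT and 332 (242 to 444) against 402 CPM (358 to 450) in KO. For both genes the intervals overlap within each library. Irx2 at 1.04 (0.847 to 1.28) and Isl1 at 0.967 (0.852 to 1.10) had intervals that include 1. Ghrl was at 7381 CPM in these insulin-positive cells and 822 CPM in the others, so low Pou3f4 went with Ghrl as well as with insulin transcripts. Their separate parts in this were not tested.

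Between the genotypes, Pou3f4 had the largest difference within endocrine-like cells. KO over WT was 1.69 (1.35 to 2.13) for Pou3f4, 1.37 (1.17 to 1.60) for Irx1, 0.979 (0.853 to 1.13) for Irx2, 1.28 (1.18 to 1.38) for Isl1 and 1.10 (0.960 to 1.25) for Pax6. None of the 5 passed 1 log2 unit, and Pou3f4 at 0.71 came nearest, where 0.334% of 6594 genes were past it upward and 0.197% downward. The members' median was 0.35 and that of all genes 0.08. In cells thinned to 2000 UMIs, 18.6% of WT and 31.2% of KO cells had Pou3f4, 40.0% and 47.8% Irx1, 45.7% and 50.7% Irx2, 74.3% and 84.8% Isl1, and 47.1% and 57.2% Pax6. Without mixed cells the Pou3f4 ratio was again 1.69 (1.33 to 2.16).

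Within Gcg-led cells Pou3f4 again had the largest ratio. These cells were not the same mix in the libraries, with Ins1 detected in 38.5% of WT and 19.7% of KO cells. Among the Gcg-led cells with few insulin UMIs Pou3f4 was at 120 CPM in WT and 241 CPM in KO. Over all Gcg-led cells Pou3f4 was at 110 CPM in WT and 222 CPM in KO, a ratio of 2.01 (1.50 to 2.72). Irx1 followed at 1.37 (1.13 to 1.67), Pax6 at 1.20 (1.00 to 1.45), Isl1 at 1.14 (1.02 to 1.26) and Irx2 at 0.937 (0.792 to 1.11). Cells with neither label had Pou3f4 at 197 CPM in WT and 333 CPM in KO, and Neurog3 cells at 64.9 and 162 CPM, the former from 3 UMIs. Among the leading hormone classes, only Ghrl-led cells had a WT value, 95.6 CPM from 3 cells, above the KO value, 64.2 CPM. Pou3f4 was also higher in WT in the cells with at least 10 insulin UMIs, most of them Gcg-led. It was at 75.2 CPM (37.6 to 135) there, against 59.0 CPM (25.5 to 116) in KO, and these intervals overlap. Pou3f4 is X-linked, and Xist, the X-inactivation transcript that marks female cells, was at 75.2 CPM in WT and 515 CPM in KO endocrine-like cells, a level that varies with the share of female cells. The part of this share in the Pou3f4 difference was not tested, and the spread between embryos is not known from 1 library each.

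Over all kept cells the ratios were larger, from 1.85 (1.63 to 2.10) for Irx2 to 2.56 (2.14 to 3.08) for Pou3f4. Pou3f4 (1.17), Irx1 (1.16) and Isl1 (1.22) passed 1 log2 unit, 3 of 5, where 0.357% of all 10367 genes did. This value includes the share of endocrine-like cells, 16.0% in WT and 37.7% in KO, and the 2 libraries differ in depth. In mixed cells Isl1 was higher in KO by 1.66 (1.46 to 1.89), while the intervals of the other 4 members included 1.

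The wider lists in endocrine-like cells gave few genes past the fold between the genotypes. Alpha-associated genes gave 0 of 6, between Ttr at -0.43 and Meis2 at 0.80, and beta-associated genes 0 of 2. Commitment genes gave 1 of 12, Sox4 at 1.07, and LIM factors 0 of 4. Of 12 hormone genes Ghrl was higher at 1.18 and Gip lower at -2.35.

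**Figure D3:**
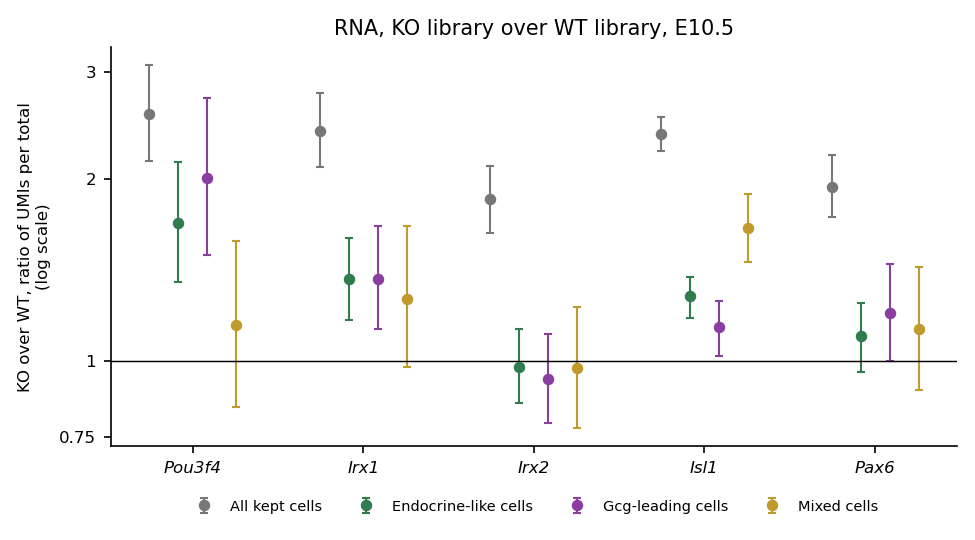
KO over WT ratio of each gene (log axis) with exact 95% counting intervals in all kept cells, endocrine-like cells, Gcg-led cells and mixed cells at E10.5. Ratios in all kept cells lie between 1.85 and 2.56, and within endocrine-like cells Pou3f4 is highest at 1.69 and Irx2 lies at 0.979.

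Accessibility scores were set beside the RNA. Each ATAC cell sums to 10000 over the 8269 genes, so a score is a share of the cell's total. Endocrine-like clusters, named from the same markers and made without the 5 genes, held 62 WT (7.40%) and 68 KO cells (9.71%) at E10.5 and 375 WT (16.2%) and 47 KO cells (7.81%) at E13.5. The median number of genes above 0 in these cells was 4993 and 4632 at E10.5, and 4396 and 4838 at E13.5. Scores are at gene level, so no single promoter or enhancer is resolved.

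Pax6 and Isl1 had the clearest endocrine accessibility. At E10.5 the Pax6 score was 3.80 in WT and 3.41 in KO endocrine-like cells, against 1.54 and 1.44 in the largest other cluster, which stayed unnamed. Isl1 scored 3.07 and 2.35, against 1.34 and 1.39. Endocrine-like over all other cells was 1.30 in log2 for Pax6 (rank 24 of 8219 genes) and 1.04 for Isl1 (rank 59). At E13.5 they were at 1.39 (rank 27 of 8208) and 1.00 (rank 89).

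The Iroquois genes and Pou3f4 differed less between clusters in ATAC than Pax6 and Isl1 did. At E10.5 the Irx1 score was 2.59 in WT and 2.95 in KO endocrine-like cells against 2.13 and 1.96 in the largest cluster, and the Irx2 score 3.35 and 4.03 against 2.64 and 2.65. Pou3f4 was at 1.20 and 0.73 against 0.63 and 0.56. In log2, endocrine-like over other cells was 0.57 for Pou3f4, 0.52 for Irx1 and 0.50 for Irx2, at ranks 433, 543 and 585. All 5 members were past 0.5 at E10.5 over both libraries, where 7.26% of genes were. This did not hold in each library: Irx1 and Irx2 were at 0.42 each in WT and Pou3f4 at 0.20 in KO. Over the largest other cluster alone, Irx1 was at 0.44 and Irx2 at 0.49. At E13.5 4 of 5 were, Irx1 at 0.34 being the exception, where 6.93% of genes were.

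The E13.5 values depended on the library as well. In WT alone, endocrine-like over other cells was 0.30 for Pou3f4, 0.11 for Irx1, 0.36 for Irx2, 0.74 for Isl1 and 1.18 for Pax6. In KO alone they were 1.72, 1.52, 2.11, 2.28 and 2.49. An erythroid-like cluster, in which the members scored between 0.03 and 0.17, held 140 of 2314 WT and 272 of 602 KO cells. The other cells were thus not the same mix in the 2 libraries. Over cluster 0 alone, the progenitor epithelium-like cells, the WT values in the same gene order were 0.77, 0.09, 0.53, 0.85 and 1.22. In KO they were 1.39, 0.97, 1.25, 1.54 and 1.81, so each member stayed higher in KO without the erythroid-like cells. The cause of this remaining gap was not tested.

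**Figure D4:**
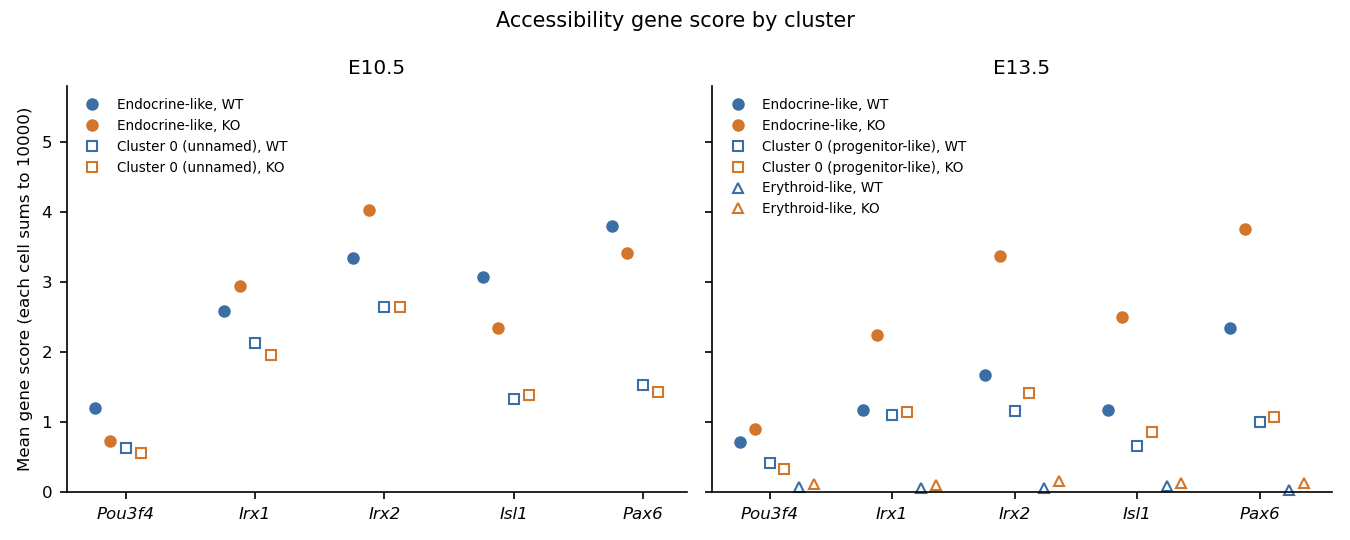
Mean accessibility score per cell of each gene in endocrine-like cells and in cluster 0 at both stages, and in erythroid-like cells at E13.5, WT and KO shown as separate points, without error bars since each group is 1 library. At E13.5 the KO endocrine-like points lie above the WT points for all 5 genes, for example 2.51 against 1.18 for Isl1.

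Between genotypes at E10.5, Pou3f4 was the 1 member past 0.5 log2 units within endocrine-like cells. Its score was lower in KO, 0.73 against 1.20 (log2 -0.71), where 8.59% of genes were past the fold downward and 7.73% upward. Above 0 were 32.4% of KO (21.5 to 44.8) and 45.2% of WT cells (32.5 to 58.3). These intervals overlap, and the median score was 0 in both libraries. Isl1 was at -0.39, Pax6 at -0.16, Irx1 at 0.19 and Irx2 at 0.27. The RNA of Pou3f4 was higher in KO at that stage and its accessibility score lower, and the 2 assays are separate libraries.

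At E13.5 all 5 members scored higher in KO endocrine-like cells. Isl1 was at 1.18 in WT and 2.51 in KO (log2 1.08), with 45.6% (40.5 to 50.8) and 78.7% (64.3 to 89.3) of cells above 0. Irx2 was at 1.68 and 3.38 (1.01), Irx1 at 1.17 and 2.25 (0.94) and Pax6 at 2.34 and 3.76 (0.68). Pou3f4 was at 0.72 and 0.90 (0.32), with 26.4% and 44.7% of cells above 0. Past 0.5 were 4 of 5, beside 9.53% of genes upward and 9.93% downward. The KO value rests on 47 cells, genotype goes with the month in the prefixes, and the median number of genes above 0 was higher in KO. Within the fixed lists, 3 of 6 alpha-associated genes were higher in KO, Ttr most at 0.93. Hormone genes were higher in 5 of 11 cases, Ghrl most at 1.70. Of the beta-associated genes 2 of 3 were lower, Nkx6-1 most at -0.77, and of the commitment genes 5 of 12, Neurog3 most at -1.48.

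Over all E13.5 cells the members were lower in KO, by log2 values of -0.91 for Pou3f4, -0.29 for Irx1, -0.47 for Irx2, -0.22 for Isl1 and -0.45 for Pax6, where 16.0% of genes were below -0.5. Without the erythroid-like cluster they were at -0.39, 0.42, 0.19, 0.42 and 0.22, so that the direction turned for 4 of the 5. At E10.5 the values over all cells were between -0.08 and 0.16.

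Set side by side by stage, with the limit that the 2 tables were scaled apart, the WT endocrine-like score was lower at E13.5 than at E10.5 for each member: 1.20 and 0.72 for Pou3f4, 2.59 and 1.17 for Irx1, 3.35 and 1.68 for Irx2, 3.07 and 1.18 for Isl1, and 3.80 and 2.34 for Pax6. All other WT cells also scored lower at E13.5, with Pou3f4 at 0.65 and 0.59 and Irx1 at 1.94 and 1.08. Irx2 was at 2.51 and 1.31 there, Isl1 at 1.24 and 0.71 and Pax6 at 1.50 and 1.04. The fall in WT was thus not particular to endocrine-like cells. In KO endocrine-like cells the Pou3f4 score was 0.73 and 0.90 and the Isl1 score 2.35 and 2.51. Irx1 was at 2.95 and 2.25, Irx2 at 4.03 and 3.38 and Pax6 at 3.41 and 3.76. Stage, tissue dissected and pool differ together between these tables and cannot be told apart.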

How the data were processed

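Single-cell RNA (10x 3′ kit) and single-cell ATAC libraries of WT and KO tissue were analysed, 1 library per group. The authors deposited the RNA as raw UMI counts per gene and cell (per the file headers, an integer matrix) and the ATAC data as an accessibility signal per gene that sums to 10000 in every cell. The build was mm10, per the submitters' processing notes; of the aligner, the cell filters and the making of the gene score, nothing is said in the labels or file headers. The 5 genes and the lists were chosen with earlier results of these data known.

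RNA cells with at least 1000 genes were kept. Clusters (scanpy 1.11.5, leidenalg 0.10.2, Leiden resolution 0.3, 2000 variable genes, 30 components, 15 neighbours) were made without the 5 genes, Ptf1a and tip and acinar genes, and named from listed markers. Doublets were called with scrublet (2 WT, 8 KO cells) and kept. UMIs were summed per library and class and given as CPM, with exact Poisson, Clopper-Pearson and exact conditional 95% intervals (scipy 1.17.1). Differences are on log2(CPM + 10) for genes with at least 50 UMIs; for ATAC they are log2 ratios of mean scores and genes had to score above 0 in 10% or more of 1 library's cells. Gene-wide counts use folds of 1 (RNA) and 0.5 (ATAC) log2 units. With 1 library per group no test across samples was possible, and p-values are not given. The scripts were tested on simulated data. Named genes are the 5 members, the highest and lowest tested gene of each list, the hormones that define the classes, and the 5 genes with the highest r to each member. Some genes that this rule names are not reported here. The Stmn2, Foxd3, Gip, Xist and mixed-cell genes were chosen after their values were seen. Alternatives were other cell filters, resolutions, hormone rules, scalings, pseudocounts, thinning to 2000 UMIs and leaving out doublets; leaving out mixed cells, marker-gated endocrine cells, leaving out the erythroid-like cluster and comparing with cluster 0 alone were added after seeing the data.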

Additional observations from a re-analysis of the deposited data

Results flagged for a closer look

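For 3 of the 5 genes the KO over WT difference of the accessibility score in endocrine-like cells had opposite directions at the 2 stages, and the difference between stages was not tested. Pou3f4 was at log2 -0.71 at E10.5 and 0.32 at E13.5. Isl1 was at -0.39 at E10.5 and 1.08 at E13.5. Pax6 was at -0.16 at E10.5 and 0.68 at E13.5. Each value compares 1 library with 1 library, at E13.5 the 47 KO cells with 375 WT cells, and the month in the barcode prefixes differs with genotype at E13.5. Irx1 (0.19 and 0.94) and Irx2 (0.27 and 1.01) were higher in KO at both stages.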

How the results depend on the processing

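Each difference between classes or genotypes was computed again under the alternatives that apply to it (7 to 11 for RNA, 2 or 3 for ATAC), by gene and as the median of the 5 genes. Of the values of single genes and the counts of genes past the fold, 223 stayed within the counting interval (RNA) or within 1.5 times (ATAC, and counts), 63 moved further, and 5 whose interval left out 0 turned direction. Of the medians 46 stayed and 11 moved. The median log2 of endocrine-like over other cells, 2.92, was 2.17 at Leiden resolution 0.5 and 2.17 at 0.8, where the Neurog3 cluster, then named neural crest and neuron-like, leaves the endocrine-like cells, 3.34 with cells thinned to 2000 UMIs, 4.71 without mixed cells and 2.36 with marker-gated cells. The median of KO over WT over all kept cells, 1.16, was 1.53 when thinned. Within endocrine-like cells it was 0.35, and 0.52 when thinned and 0.60 with marker-gated cells. The median of Gcg-led over Neurog3 cells, 0.40, was 1.45 with Pyy, Iapp, Cck and Gast added as hormones, and 1.01 over all kept cells. There Isl1 went from -0.37 to 0.12, 0.69 over all kept cells and 0.24 with marker-gated cells, and Pax6 from -0.57 to 0.59 over all kept cells and 0.05 with marker-gated cells. The cause of these shifts was not tested. The median at E13.5 over all cells went from -0.45 to 0.22 without the erythroid-like cluster. Without a UMI minimum 37 genes in place of 22 were past 1 log2 unit upward between genotypes in endocrine-like cells and 27 in place of 13 downward. Median-of-ratios scaling shifted KO over WT by 0.07 log2 units in endocrine-like and 0.19 in all kept cells. No paired analysis was possible because the groups compared share fewer than 2 replicate numbers. No replicate could be left out, as each group has 1 library.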
